A study of Mus musculus with 5 samples.

Results

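The nuclear genes of the respiratory chain and the ATP synthase were taken as 1 set from the transcript table: every gene whose symbol begins with Nduf, Uqcr or Atp5, together with Sdha, Sdhb, Sdhc, Sdhd, Cyc1 and Cycs. Cytochrome oxidase subunits were not part of the set, and symbols marked as pseudogenes (-ps) were left out. The rule found 73 genes among the 22098 symbols of the table, from 78 transcript rows, and where a gene had more than 1 row the row with the highest mean over the 5 libraries stood for it. The rule used no measured difference, but it was chosen with earlier results of these data known.

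The chain sits in the inner mitochondrial membrane. Complex I, the NADH dehydrogenase, takes electrons from NADH, and complex II, succinate dehydrogenase, takes them from succinate in the citric acid cycle. Both pass them through ubiquinone to complex III, which hands them to the small soluble carrier cytochrome c and so to cytochrome oxidase. Complexes I and III pump protons as they work, and the ATP synthase lets the protons flow back through its membrane part, Fo, to drive ATP formation in its catalytic head, F1. Each complex is built from many different subunits, so the genes are often studied as a group. A few subunits are encoded in mitochondrial DNA and are outside this set.

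RNA was measured by sequencing in 5 libraries of Hardy fraction A. This is the first stage of B cell development in Hardy's sorting scheme, and it was sorted from the marrow of C57BL/6 mice without removing other lineages. The mice were 6 to 7 weeks old. The 2 wt libraries came from mice with the normal Ikaros gene, the 2 dF1 libraries from mice of genotype Ikaros_ZnF1-/- and the single dF4 library from genotype Ikaros_ZnF4-/-. Ikaros is a zinc finger transcription factor of blood cell development, and the genotypes name the finger that is mutated. The dF1 libraries are described as biological replicates. Nothing in the labels ties each wt library to its own mouse, so a p-value here measures only how far these samples spread, which may be technical. Values are RPKM, reads scaled to transcript length and library size, a scale on which transcripts of different length can be compared.

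The dF4 library stood apart from the others. Most of its low values moved in steps of 1.68 RPM, taken as the worth of 1 read, which puts it at about 597000 reads. The other 4 libraries showed no such step, so their depth is unknown. Summed over 10 neutrophil markers it held 32928.4 RPKM, against 215.6 to 1047.5 in the other 4 libraries, and over 10 erythroid markers 952 against 63.7 to 89.4. Over 10 plasmacytoid dendritic cell markers it held 885.5 RPKM, against 4344.6 to 5649.3, with Cd300c listed at 0 in dF4. Early B lineage markers, those of the labelled proB cells, were all detected in every library and summed to 306.7 to 435.2 RPKM in wt and dF1 and 1160.2 in dF4. NK cell markers summed to 722.8 RPKM in wt replicate 2 and 626.8 in dF4, against 1582.1 to 1845.7 in the other libraries. These are mixtures of cells, and in such bulk samples fewer cells of a type and less RNA per cell cannot be told apart.

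The set was strongly transcribed in every library. Its members summed to 3527.1 and 3040 RPKM in wt, with 3396.1 and 3850.7 in dF1 and 3996.1 in dF4, which is between 1.06% and 1.25% of each library's summed RPKM. The median member stood between 29.2 and 35.3 RPKM in each library. Between 53 and 55 of the 73 members reached 10 RPKM in each library (72.6% to 75.3%), where 23.2% to 24.5% of all transcripts did. Averaged over the 5 libraries, 67 members reached 1 RPKM, 60 reached 5 RPKM and 54 reached 10 RPKM. The 6 members below 1 RPKM were Atp5g1, Atp5g2, Atp5l, Cycs, Ndufa4l2 and Ndufab1.

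**Figure D1:**
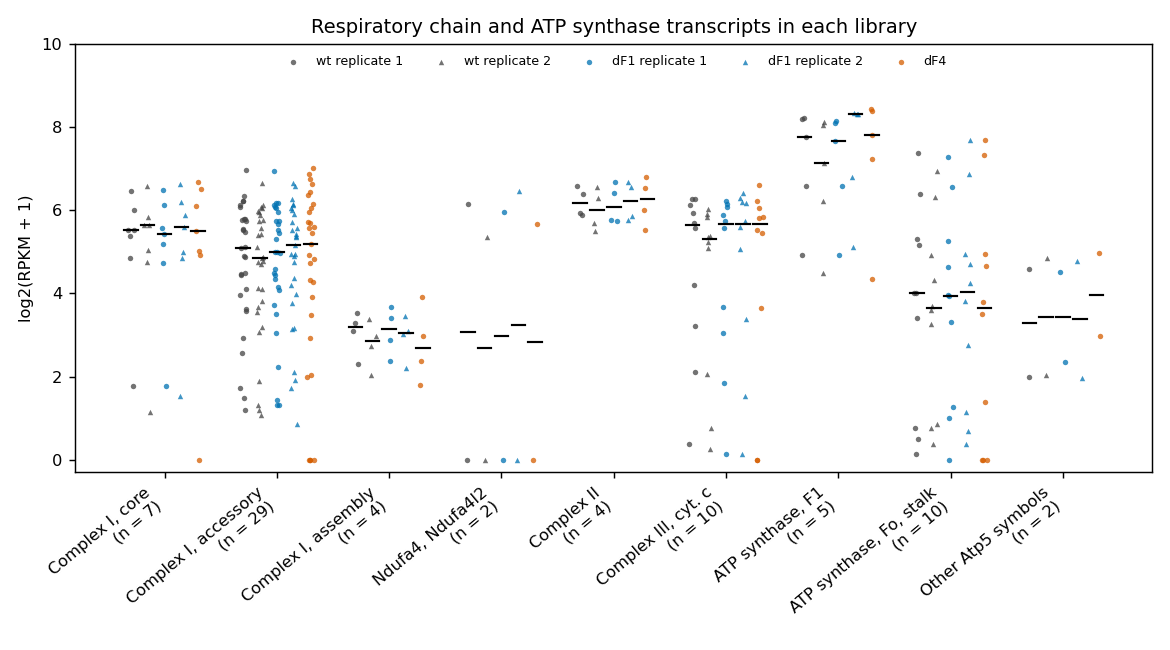
Level of each of the 73 members as log2(RPKM + 1), by its place in the chain, with 1 symbol a member for each of the 5 libraries and a bar at the median of each library. The F1 subunits stood highest, complex II was the most even group, and members near 0 were found in complex I, in complex III with cytochrome c and in the Fo part.

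Complex I contributed the largest number of members. Its 7 core subunits, which carry the flavin, the iron-sulfur clusters and the path of the electrons, had a median level of 45.6 RPKM. Ndufv1, which binds NADH and the flavin, stood at 45.2 and 48.9 RPKM in wt, with 41.8 and 47.8 in dF1 and 44.5 in dF4, so that dF1 overlapped with wt and dF4 lay just below wt. Ndufs1, the largest iron-sulfur subunit, was lower at 27.8 and 26.1 RPKM in wt, with 25.6 and 27.8 in dF1 and 29.5 in dF4. Ndufv1 was above Ndufs1 in every library. Ndufs3 was far below the others, at 2.4 and 1.2 RPKM in wt, with 2.4 and 1.9 in dF1 and listed at 0 in dF4.

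The 29 accessory subunits of complex I, which surround the core, had a median of 30.4 RPKM, and 23 of them reached 10 RPKM. The highest was Ndufa3, at 123.8 and 99 RPKM in wt, with 121.8 and 94.8 in dF1 and 106.5 in dF4. Its dF1 and dF4 values lay inside or next to the wt range. The lowest was Ndufab1, the mitochondrial acyl carrier protein, at 1.3 RPKM in both wt libraries, with 1.5 and 0.8 in dF1 and listed at 0 in dF4. Between accessory subunits with a mean of at least 1 RPKM the highest mean was 76.9 times the lowest. The 4 assembly factors, which help build complex I and do not stay in it, were all low, from a mean of 3.8 RPKM for Ndufaf4 to 11.2 for Ndufaf3.

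Ndufa4 carries a complex I name but is now placed with cytochrome oxidase. It was present at 69.8 and 40.2 RPKM in wt, with 61.6 and 87.1 in dF1 and 50.2 in dF4, with the wt libraries further apart than the genotype means. Its paralogue Ndufa4l2, known as a gene induced by low oxygen, was listed at 0 in all 5 libraries.

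Complex II was the most even group: its 4 subunits lay within a factor of 1.94 of each other in mean level. Sdha, the flavoprotein that oxidises succinate, stood at 94.5 and 92.6 RPKM in wt, with 100.8 and 101.4 in dF1 and 109.7 in dF4. Its iron-sulfur partner Sdhb stood at 83.2 and 78 RPKM in wt, with 83.8 and 93.3 in dF1 and 92.3 in dF4. In both genes the mutant libraries lay above the wt libraries by small amounts. The membrane anchors Sdhc and Sdhd had means of 51.5 and 56.1 RPKM.

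In complex III and cytochrome c, 7 of 10 members reached 10 RPKM and the median was 47.4. Uqcrc1, a large core protein of complex III, was the highest at 68.3 and 59.5 RPKM in wt, with 66.1 and 84.3 in dF1 and 73.3 in dF4. Cyc1, the haem protein cytochrome c1, followed at 60.6 and 64.8 RPKM in wt, with 57.9 and 71.1 in dF1 and 96.4 in dF4, the highest of its 5 values. Uqcrfs1, the Rieske iron-sulfur protein, stood at 46.4 and 37 RPKM in wt, with 46.7 and 52.7 in dF1 and 54.9 in dF4. Cycs, cytochrome c itself, was the exception. It stood at 0.3 and 0.2 RPKM in wt, against 0.1 in both dF1 libraries, and was listed at 0 in dF4, although every respiring cell needs the protein.

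The F1 head of the ATP synthase held the highest transcripts of the set, with a median of 219 RPKM over its 5 genes. Atp5b, the catalytic beta subunit, stood at 297.8 and 276.3 RPKM in wt, with 282 and 316.2 in dF1 and 347.4 in dF4. Atp5a1, the alpha subunit that alternates with it in the ring, stood at 293.8 and 265.2 RPKM in wt, with 275.3 and 321.9 in dF1 and 331.9 in dF4. The 2 transcripts were close to each other in every library, and the dF1 values lay on both sides of the higher wt value. Atp5c1, the rotating gamma subunit, was lower at 29.1 and 21.6 RPKM in wt, with 29.5 and 33.9 in dF1 and 19.4 in dF4.

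The 10 genes of the Fo part and the stalk were spread more widely, with a median of 14.8 RPKM. The turning ring of Fo is made of subunit c, and in mouse 3 genes, Atp5g1, Atp5g2 and Atp5g3, encode the same mature protein behind different import sequences. Almost all of the measured signal was in Atp5g3, at 164 and 121.4 RPKM in wt, with 153.7 and 203.9 in dF1 and 204.5 in dF4. Atp5g1 stood at 0.7 RPKM in both wt libraries, with 1 and 1.2 in dF1 and 0 in dF4. A second Atp5g1 transcript, whose row was not used, held 2.3 RPKM in dF4 and at most 0.1 in the other libraries. Atp5g2 stood at 0.1 and 0.3 RPKM in wt, with 0 and 0.6 in dF1 and 0 in dF4. The remaining symbols with an Atp5 name, Atp5s and Atp5sl, are not subunits of the enzyme as now understood. They had means of 3.98 and 25.9 RPKM, and Atp5sl stood at 22.9 and 27.8 in wt, with 22 and 26.6 in dF1 and 30.2 in dF4.

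The end of the coding sequence is shown for the 3 subunit c genes because it encodes the shared mature protein, with capitals at the 30 of 120 positions where the genes are not all alike. The last 78 residues of the 3 predicted proteins are identical, while the whole proteins have 136, 146 and 141 residues. The stretches come from the GENCODE transcripts of build GRCm38, where Atp5g1 lies on chr11:96072990-96075619, Atp5g2 on chr15:102662864-102671127 and Atp5g3 on chr2:73908447-73911326, all on the minus strand.
Atp5g1: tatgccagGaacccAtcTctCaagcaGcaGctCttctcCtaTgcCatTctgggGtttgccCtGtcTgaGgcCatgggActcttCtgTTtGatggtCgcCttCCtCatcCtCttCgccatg
Atp5g2: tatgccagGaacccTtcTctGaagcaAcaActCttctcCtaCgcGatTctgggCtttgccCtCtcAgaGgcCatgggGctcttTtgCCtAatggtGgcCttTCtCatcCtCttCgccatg
Atp5g3: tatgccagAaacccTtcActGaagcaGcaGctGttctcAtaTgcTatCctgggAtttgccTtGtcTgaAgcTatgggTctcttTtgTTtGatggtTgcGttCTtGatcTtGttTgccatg
The differing positions are scattered over the stretch.

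Most of the members near 0, though not Ndufa4l2, had something in common in the genome. Many genes of the set have processed pseudogenes, intronless copies of the messenger RNA inserted elsewhere. For each member the share of its coding sequence that annotated pseudogene transcripts cover at 95% identity or more was measured. Of the 73 members, 19 were covered for at least 50%, and 10 of these 19 had a mean level below 5 RPKM: Atp5g1, Atp5g2, Atp5l, Cycs, Ndufa12, Ndufab1, Ndufb4, Ndufs3, Ndufs5 and Uqcrb. Of the 54 members covered for less, 3 were below 5 RPKM: Atp5s, Ndufa4l2 and Ndufaf4. The median level was 3.42 RPKM in the covered members and 53.6 in the others, and the highest covered member was Ndufb11 at 31.5 RPKM.

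The identity required was then changed. At 98% identity 13 members were covered, the same number of them, 10, stood below 5 RPKM, and the highest was at 16.1 RPKM. At 90% identity 30 members were covered, again with 10 below 5 RPKM, but the class now held members as high as Atp5b at 303.94 RPKM. Coverage at 98% identity implies coverage at 95% and 90%, so the same 10 low members had to recur, and no further low member entered.

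The first 75 coding bases of 3 low members are shown above the same stretch of a close copy, to let the likeness be seen. Capitals mark the positions where gene and copy differ. Ndufs3, on chr2:90894636-90904827, is matched at 98.61% by the processed pseudogene Gm12251 on chr11:58392769-58393560.
Ndufs3: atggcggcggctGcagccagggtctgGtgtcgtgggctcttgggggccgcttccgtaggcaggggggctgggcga
Gm12251: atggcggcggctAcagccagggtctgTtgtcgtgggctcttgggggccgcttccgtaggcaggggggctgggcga
Cycs, on chr6:50562563-50566538, is matched at 99.37% by Gm10108 on chr5:13121448-13121766.
Cycs: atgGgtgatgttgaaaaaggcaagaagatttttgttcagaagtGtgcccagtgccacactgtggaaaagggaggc
Gm10108: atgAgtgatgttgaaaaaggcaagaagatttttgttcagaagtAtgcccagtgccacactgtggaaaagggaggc
Atp5l, a small Fo subunit on chr9:44913217-44920742, is matched at 100% by Gm10221 on chr5:24581554-24581862, and the stretches hold no capital.
Atp5l: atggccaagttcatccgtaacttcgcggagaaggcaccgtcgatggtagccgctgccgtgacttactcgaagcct
Gm10221: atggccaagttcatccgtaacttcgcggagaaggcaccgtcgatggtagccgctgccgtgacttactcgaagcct
All 6 lie on the minus strand of build GRCm38, and the positions and sequences are GENCODE's. The deposited values were made on another build, mm9, and how the submitters treated reads that match several places is not given in the sources used here. Whether such reads were lost from these transcripts was not tested.

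**Figure D2:**
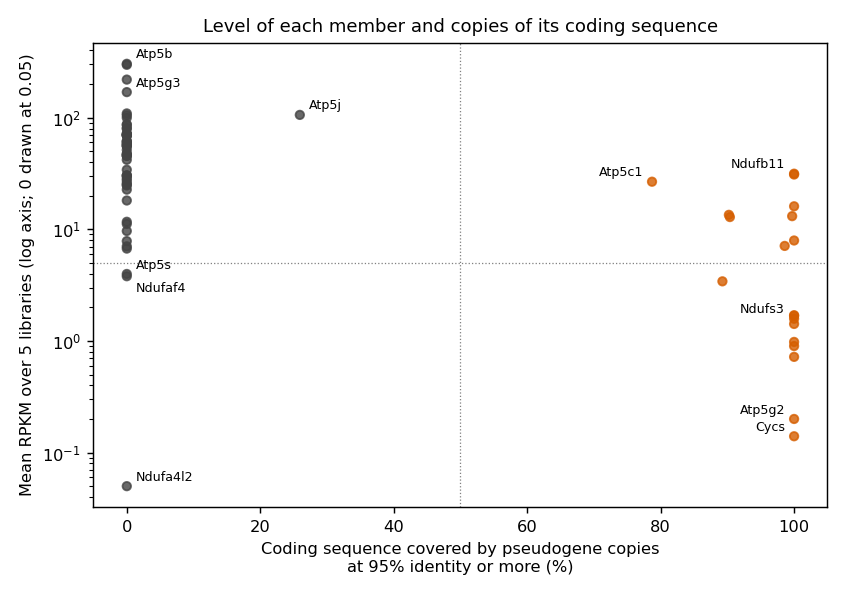
Mean RPKM of each of the 73 members over the 5 libraries (log axis, with a mean of 0 drawn at 0.05) against the percent of its coding sequence covered by pseudogene copies at 95% identity or more. Orange points are the 19 members covered for at least 50%, of which 10 lie below the dotted line at 5 RPKM, and dark points are the other 54.

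The set is rich in such copies when set beside the rest of the table. Counted over whole transcripts, with a copy defined as a pseudogene match of 95% identity over at least 50% of the transcript, 16.4% of the members had at least 1 copy, where 2.79% of 25658 other transcripts did. By this rule 7 of 12 members with a copy and 6 of 61 without were below 5 RPKM. Cycs was among those without, as copies covered 10.2% of its whole transcript. Of the other transcripts, 80.3% of the ones with a copy and 66.2% of the ones without were below 5 RPKM. The same appeared in 4 other mitochondrial gene lists (assembly factors, citric acid cycle, biogenesis, and carriers), where 7 of the 11 genes with a covered coding sequence and 4 of the 46 others stood below 5 RPKM. Covered members were also the shorter ones: among those tested for differences, the median transcript length was 550 bases in 14 covered members and 935 in 53 others.

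Differences between dF1 and wt were small over the set. No member passed the test in the comparison of the 2 dF1 with the 2 wt libraries (limma on log2(RPKM + 1), two-sided, Benjamini-Hochberg adjustment over 12213 transcripts at a threshold of 0.05), and neither did any other transcript, a background of 0%. The median difference over the 67 members tested was 0.10 on the log2 scale, against 0.01 over all transcripts, and members ranged from -0.46 to 0.57. Of the 67, 45 lay above wt and 22 below, or 67.2% above, where 51.6% of all transcripts did. At an unadjusted p under 0.05 there was 1 member (1.49%), where 7.16% of all transcripts stood. A difference of at least 0.5 in either direction was found for 3 members (4.48%), Atp5e, Ndufa7 and Uqcr11, against 7.19% of all transcripts. Among transcripts of at least 10 RPKM it was found for 2 of 54 members (3.7%), against 5.08%.

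Differences were counted next by overlap of the libraries. Both dF1 libraries lay above both wt libraries for 8 members (11.9%), where 16.9% of all transcripts did, and below them for 4 members (5.97%), where 17.9% did. Together these were 12 members (17.9%), against 34.7% of all transcripts. The 8 were Atp5c1, Atp5j, Ndufa13, Ndufb3, Ndufs8, Sdha, Sdhb and Uqcrfs1, and the 4 were Atp5j2, Atp5k, Ndufb8 and Ndufc2. Groups without overlap were thus less frequent among members than in the whole table, a difference that was not tested.

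Of the members above wt, Atp5j, coupling factor 6 of the stalk, stood at 83.1 and 78.7 RPKM in wt, with 92.6 and 116.2 in dF1 and 159.1 in dF4. Its dF1 difference was 0.36 on the log2 scale with a standard error of 0.15 (limma adjusted p = 0.712). Ndufa13, also known as the cell death regulator GRIM-19, stood at 28.7 and 26.4 RPKM in wt, with 30.6 and 40.6 in dF1 and 25.4 in dF4, with most of the excess in dF1 replicate 2. Its dF1 difference was 0.35 with a standard error of 0.17 (limma adjusted p = 0.753). Ndufb3, a small membrane subunit of complex I, stood at 16.3 and 10.8 RPKM in wt, with 16.8 and 17.4 in dF1 and 3.1 in dF4. For Ndufb3 the dF1 libraries stood just above wt replicate 1, with a difference of 0.34 and a standard error of 0.21 (limma adjusted p = 0.799). The differences of Atp5c1, Uqcrfs1, Sdhb and Sdha, whose values are given above, were 0.32, 0.25, 0.13 and 0.11, each with an adjusted p above the threshold.

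Below wt, Atp5j2, the f subunit of Fo, had the lowest p of the set. It stood at 35.1 and 29.2 RPKM in wt, with 23.8 and 25.1 in dF1 and 10.3 in dF4, a dF1 difference of -0.38 with a standard error of 0.14 (limma adjusted p = 0.681). Atp5k, the e subunit, stood at 9.6 and 11.1 RPKM in wt, with 9 and 5.8 in dF1 and was listed at 0 in dF4. Its dF1 difference was -0.46 with a standard error of 0.23 (limma adjusted p = 0.753). Both are small membrane subunits linked to pairing of the enzyme into dimers. Ndufb8, at 53.4 and 53.2 RPKM in wt with 52.9 and 51.4 in dF1, was counted as not overlapping with a difference of only -0.03. Ndufc2 stood at 28.3 and 28 RPKM in wt with 23 and 26.2 in dF1, a difference of -0.19.

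By role, the median dF1 difference was 0.28 in F1 and in the Fo part and stalk, 0.22 in complex III and cytochrome c, 0.12 in complex II and in the assembly factors, 0.05 in the complex I core and 0.03 in its accessory subunits. All 5 F1 genes lay above wt, from 0.06 for Atp5b to 0.54 for Atp5e, and so did 8 of 9 genes of complex III and cytochrome c, but under quantile normalization only 3 and 7 did, with Atp5a1, Atp5b and Cyc1 below wt. None of these passed the test, and in several the wt libraries differed more from each other than from dF1.

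**Figure D3:**
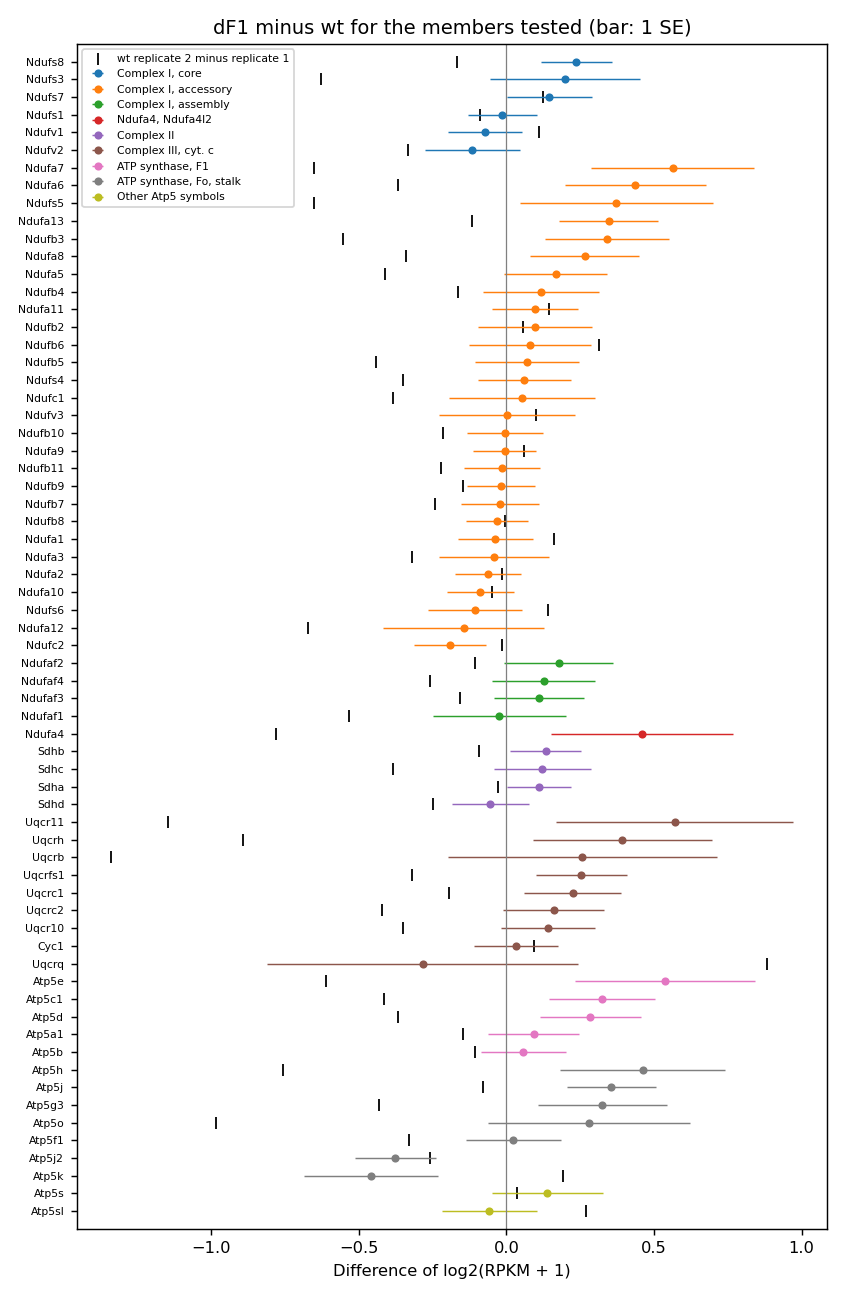
Difference of log2(RPKM + 1) between the 2 dF1 and the 2 wt libraries for 66 of the 67 members tested, grouped by colour into roles, with a bar of 1 standard error from limma. Black ticks give wt replicate 2 minus replicate 1 for the same member and often lie further from 0 than the point.

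The wt libraries differed within the set. In 52 of 67 members (77.6%) wt replicate 2 was below replicate 1, where 60.3% of all transcripts were, and the median difference was -0.22 in members and -0.08 over all transcripts. In dF1, replicate 2 was above replicate 1 for 47 members (70.1%), where 57.3% of all transcripts were, with medians of 0.12 and 0.05. The median dF1 difference of the set depended on these libraries. It was 0.19 without wt replicate 1 (all transcripts 0.04) and 0.02 without wt replicate 2 (all transcripts -0.03). Leaving out dF1 replicate 1 gave 0.12 (all transcripts 0.04) and leaving out dF1 replicate 2 gave 0.06 (all transcripts -0.02). The gap between the wt libraries had wider medians in shorter classes. They were -0.36 in 26 members under 600 bases, -0.19 in 18 members of 600 to under 1200 bases and -0.12 in 23 longer ones. Over all transcripts the same classes gave -0.13, -0.11 and -0.08. With both limited to means of at least 10 RPKM, members gave -0.35, -0.19 and -0.12 and all transcripts -0.23, -0.14 and -0.09. The rank correlation of the gap with length was weak, 0.19 over 67 members and 0.06 over all transcripts (Spearman). Covered members differed most, with a median of -0.59 in 14, against -0.16 in 53 others. Summed markers of cell types also differed between wt replicates 1 and 2, with 391.6 and 1047.5 RPKM for neutrophils and 1582.1 and 722.8 for NK cells. In dF1 replicates 1 and 2 the sums were 215.6 and 827.7 for neutrophils and 1845.7 and 1616.9 for NK cells. The part of transcript length, copies or cell mixture in these gaps was not tested.

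In the dF4 library most members could not be told from wt at its depth. The median member was represented by 18 reads and 27 members by fewer than 10, and the wt mean lay inside the exact 95% Poisson interval of the dF4 value for 56 of 73 members. These intervals cover counting error only, since the library has no replicate. Of the 11 members listed at 0 in dF4 in the row used, 10 had a wt mean below the limit that a count of 0 allows (3 reads). The other was Ndufb2, a small accessory subunit of complex I, with 11.3 and 11.8 RPKM in wt, with 10.4 and 14.8 in dF1 and a limit of 10.9 in dF4. The Poisson interval of Ndufb2 reached 13.5 RPKM and held both wt values.

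The interval lay above both wt libraries for 12 members (17.9%), where it did for 20% of all transcripts, and below both for 1 (1.49%), where it did for 13.6%. The 12 were Atp5a1, Atp5b, Atp5d, Atp5j, Cyc1, Ndufa6, Ndufa8, Ndufb5, Ndufb7, Ndufs7, Ndufs8 and Uqcrq. Atp5a1 and Atp5b had the most reads, 484 and 392, with intervals of 303 to 363 RPKM and 314 to 384 RPKM, both just above their higher wt value. For Cyc1 the interval from 69 reads was 74.9 to 122 RPKM, and for Atp5j that from 72 reads was 124 to 199 RPKM. All 10 neutrophil and all 10 erythroid markers were also above wt by this measure and all 10 plasmacytoid dendritic cell markers were below, and their part in these values was not tested.

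By the size of the difference, few members stood out. A member was counted when dF4 lay outside both wt libraries, at least 1 from the wt mean on the log2(RPKM + 1) scale, with the wt libraries within 0.5 of each other and a mean over all libraries of 5 RPKM or more. Of the 50 members that could be counted, 1 was higher (2%), where 7.75% of all transcripts were, and 5 were lower (10%), where 10.4% were. With wt replicate 1 left out 10 of 60 members were higher (16.7%), where 11.3% of all transcripts were. With wt replicate 2 left out 2 of 60 were (3.33%), where 8.78% of all transcripts were, and with dF1 as the reference 0 of 54 were, where 7.21% were. With 1 wt library the condition on the spread no longer applies. Over the 67 members with a mean of at least 1 RPKM, 40 lay above wt (59.7%), where 51.3% of all transcripts did, with a median of 0.19 against 0.02 over all transcripts. That median changed with the setting. It was 0.24 without wt replicate 1 (all transcripts 0.08) and 0.09 without wt replicate 2 (all transcripts -0.03). Under quantile normalization it was 0.06 (all transcripts -0.05), and with dF1 as the reference 0.08 (all transcripts 0.01). Median centring, which shifts the differences of all transcripts by the same amount, gave 0.12 (all transcripts -0.05).

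The higher member was Ndufs7, a core iron-sulfur subunit of complex I, at 45 and 49.1 RPKM in wt, with 47 and 57.7 in dF1 and 101.9 in dF4. Its 47 reads gave an interval of 75.5 to 137 RPKM, above all 4 other libraries. Uqcrq, a small subunit of complex III, stood at 17.5 and 33.1 RPKM in wt, with 11.8 and 32.3 in dF1 and 55.9 in dF4. Uqcrq was not counted because replicates of the same genotype lay far apart. The same held for Atp5h, the d subunit of the stalk, at 15.2 and 8.6 RPKM in wt, with 14.6 and 17.9 in dF1 and 24.1 in dF4. Uqcr11, another small subunit of complex III, stood at 8.3 and 3.2 RPKM in wt, with 7.2 and 9.5 in dF1 and 11.5 in dF4, the last from 3 reads.

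The 5 lower members, Atp5j2, Atp5k, Ndufaf2, Ndufb2 and Ndufs6, rested on at most 3 reads each in dF4. Ndufaf2, an assembly factor of complex I, stood at 7.5 and 6.9 RPKM in wt, with 9.6 and 7.1 in dF1 and 2.5 in dF4, from 1 read. Its interval of 0.062 to 13.6 RPKM held both wt values. Ndufs6, a zinc-binding subunit of complex I, stood at 14.5 and 16.1 RPKM in wt, with 15.8 and 12.6 in dF1 and 6.6 in dF4, from 2 reads. Its row for a second, non-coding transcript held between 0 and 4.5 RPKM and was not used. Atp5j2, with 3 reads, had an interval of 2.15 to 30.5 RPKM, which held 1 of its 2 wt values. In Ndufb3, already named above, 1 read gave 0.079 to 17.4 RPKM, which held both wt values. Ndufb2, with 0 reads, had an interval of 0 to 13.5 RPKM, which also held both wt values. These wt values lay above its limit of 3 reads, 10.9 RPKM, by less than 1 RPKM at the nearer value. The comparisons of dF1 and of dF4 with wt share the wt libraries.

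**Figure D4:**
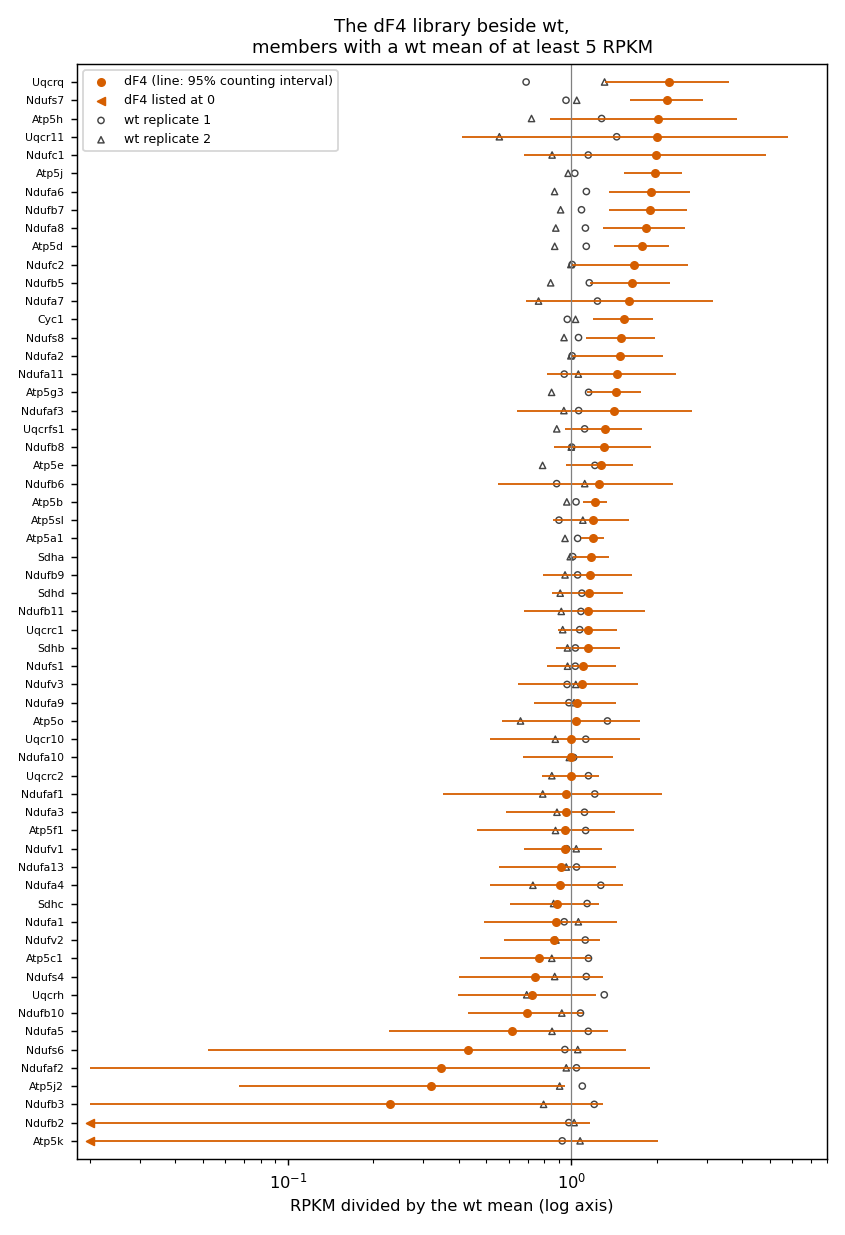
Value of the dF4 library divided by the wt mean (log axis) for 59 members with a wt mean of at least 5 RPKM, with its exact 95% Poisson interval as a line cut at the left edge of the plot. Open symbols are the 2 wt libraries and arrowheads at the left edge are the members listed at 0 in dF4, and most lines cross the wt values.

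Other genes of mitochondrial energy supply were compared in the same way. No gene of the 4 lists passed the dF1 test, where 0% of all transcripts did. The median dF1 difference was -0.05 in 14 assembly and inhibitor factors, 0.05 in 16 genes of the citric acid cycle, 0.03 in 11 genes of mitochondrial biogenesis and 0.21 in 11 carriers and channels. Idh2, the mitochondrial NADP-dependent isocitrate dehydrogenase, stood at 49.9 and 52.4 RPKM in wt, with 34.4 and 37.8 in dF1 and 14.7 in dF4. Its dF1 difference was -0.49 with a standard error of 0.11 (limma adjusted p = 0.474), and the groups did not overlap. Myc, a growth regulator that acts on many mitochondrial genes, stood at 16.6 and 8.5 RPKM in wt, with 21.7 and 25.5 in dF1 and 30.7 in dF4. For Myc the difference was 0.92 with a standard error of 0.31 (limma adjusted p = 0.660).

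In the dF4 library the same lists had median differences from wt of -0.04, 0.18, 0.32 and -0.20. Atpif1, the inhibitor that stops the ATP synthase from running backwards, stood at 44.8 and 47.7 RPKM in wt, with 46.6 and 40.9 in dF1 and 139.2 in dF4, the only library apart. Mdh2, malate dehydrogenase of the citric acid cycle, stood at 104 and 88.2 RPKM in wt, with 102 and 108.8 in dF1 and 190.7 in dF4. Phb2, a prohibitin of the inner membrane, stood at 96.4 and 87 RPKM in wt, with 102.6 and 118.6 in dF1 and 158.6 in dF4. Others were lower in dF4. Bcs1l, an assembly factor of complex III, stood at 8.4 and 7.6 RPKM in wt, with 6.3 and 9.1 in dF1 and 3.5 in dF4. Mfn1, a mitofusin of the outer membrane, stood at 7.7 and 7.9 RPKM in wt, with 8.2 and 7.7 in dF1 and 4.1 in dF4. Idh2, given above, was also lowest in dF4. The neutrophil and erythroid markers were high in that library as given above, and their part in these values was not tested.

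Promoters were read for the 62 members with an entry in the RefSeq promoter table (build GRCm38.p6), over the 250 bases before the start. The motif of nuclear respiratory factor 1 (GCGCA, any 1 base, then GCGC), a factor known for nuclear genes of respiration, was found on either strand in 12 of them (19.4%), against 3.86% of all 27025 promoters and 10.1% of the 5037 promoters of genes with at least 10 RPKM. The ETS motif CCGGAAG, which GABP binds, was found in 10 members (16.1%), against 7.05% of all promoters and 16.1% of those at 10 RPKM. The oestrogen-related receptor motif AAGGTCA was found in 5 members (8.06%), against 4.05% and 2.46%. These were Atp5g3, Atp5l, Ndufb2, Ndufb4 and Ndufs5, and all but Atp5g3 averaged below 10 RPKM. An Ikaros motif, TGGGAA, which shares GGAA with the ETS motif, was found in 10 members (16.1%), against 21.5% and 19.4%. The 62 members were of any level, so their shares and those of genes with at least 10 RPKM come from unlike sets. A match is a likeness of letters only and does not show binding.

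The window around the nuclear respiratory factor 1 motif is shown for 4 members of different level, with the motif in capitals. Sdha (chr13:74350304-74350363, minus strand) and Sdhd (chr9:50603894-50603953, minus strand) belong to complex II. Ndufa5 (chr6:24527682-24527741, minus strand) is a complex I subunit. Atp5g2 (chr15:102671055-102671114, minus strand) is the subunit c gene that was near 0.
Sdha: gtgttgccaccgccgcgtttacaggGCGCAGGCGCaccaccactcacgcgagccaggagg
Sdhd: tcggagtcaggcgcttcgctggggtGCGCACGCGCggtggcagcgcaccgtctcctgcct
Ndufa5: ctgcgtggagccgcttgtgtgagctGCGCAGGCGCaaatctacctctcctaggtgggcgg
Atp5g2: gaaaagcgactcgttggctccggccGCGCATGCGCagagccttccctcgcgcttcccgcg
These 4 genes, shown as examples of different level, had mean levels of 99.8, 56.1, 28.5 and 0.2 RPKM. The last of these has copies that cover its whole coding sequence.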

How the data were processed

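The authors deposited 1 table of RPKM values, written to 1 decimal, for each RefSeq transcript and library, per the file headers. Its length column, also deposited, gives transcript length in bases. TopHat, bedtools and the build mm9 are named in the submitters' processing notes, without versions, and the libraries were made with Illumina TruSeq from mRNA-enriched total RNA, per the labels' protocols. Of strand use and read sharing the sources used here say nothing. There were 26531 transcript rows, and 1 line without a gene name was left out.

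Differences were computed on log2(RPKM + 1), which understates changes at low levels. For dF1 against wt, 2 libraries each, limma 3.58.1 (R 4.3.3) fitted a linear model with trended eBayes to the 12213 rows averaging 1 RPKM or more, with Benjamini-Hochberg adjustment over all of them. The script was tested on simulated data. The dF4 library was described by the size rule and by exact Poisson intervals on reads recovered from its steps, which were whole within 0.1 read for 79.8% of 1951 low values. Atp5l, at 1.6 RPKM in dF4, was rounded to 0 reads. Copies were searched with blastn 2.17.0 among 13607 GENCODE pseudogene transcripts, and all 73 members matched by RefSeq accession. The copy search was chosen after seeing the values.

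Named genes are catalytic subunits, isogene sets, the highest member of each role, the 5 largest differences each way in dF1 (groups not overlapping) and dF4 (mean of at least 5 RPKM), members past the threshold, members below 1 RPKM and at most 2 genes of each other list. Ndufs3, Ndufb11, Atp5e, Ndufa7 and those in lists of counts are named for the counts they belong to, after their values were seen. The members and lists were chosen with earlier results of these data known. Alternatives were other pseudocounts, filters and scalings, the replicate block, robust eBayes and leaving out each library. The values of 1 member are not reported here.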

Additional observations from a re-analysis of the deposited data

How the results depend on the processing

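No member passed the dF1 test under any alternative, and over 14 alternatives the lowest adjusted p of the 29 named members tested was 0.420 (limma). Over all transcripts the count of 0 became 245 without a filter on low values (93 higher, 152 lower), 25 with a filter at 5 RPKM and 33 with robust eBayes. The cause was not tested. Of 406 values for the named members, 22 had the opposite sign, in 13 members, none of which was called. The count of members higher in dF4 ranged from 2 to 10 of 60 when a wt library was left out (8.78% to 11.3% of all transcripts) and was 0 of 54 with dF1 as the reference (7.21%). The median dF4 difference over all members past the filter on low values, counted as higher or not, ranged from 0.06 to 0.24 over the alternatives. The count of members lower in dF4 was 3 when only members covered by copies for under 50% were counted, an alternative chosen after seeing the data that leaves fewer members.

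Replicates of wt and dF1 share the numbers 1 and 2, but no label ties a wt library to a dF1 library. Over 12213 transcripts the deviations of the libraries numbered 1 correlated at 0.30, and with 2 numbers this pairs nothing. With a replicate block 0 transcripts and 0 members were called, and 1071 transcripts had an unadjusted p under 0.05, against 875 without it. Depth limits the dF4 values, where 27 members had fewer than 10 reads. In wt and dF1 the depth is unknown.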
